A study of Mus musculus with 6 samples.

Results

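The genes of endoplasmic reticulum (ER) chaperones and of the unfolded protein response were compared between cortical cultures treated with 10HDA, a fatty acid found in royal jelly, and cultures treated with vehicle. They were 40 genes of the 43346 in the count table, chosen by name with earlier results of these data known, and all 40 were found by their Ensembl identifiers. By role they were 10 chaperones and co-chaperones, 2 lectin chaperones, 6 disulphide enzymes, 10 genes for the degradation of misfolded proteins, 7 sensors, transcription factors and activating proteases, 3 genes of protein translocation and 2 regulatory subunits of the eIF2alpha phosphatase. The question was whether the arms of the response run by ATF6 and by XBP1 moved with the treatment.

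Both groups were primary brain cortical cell cultures from mouse fetuses at gestational day 15.5, which the labels give as strain Cyp19-EGFP and genotype SRY+. Cyp19-EGFP mice carry a transgene that places a green fluorescent protein under the control of the aromatase gene, whereas the methods name C57BL/6 embryos for this sequencing experiment. The vehicle group received DMSO and the treated group 1 mM 10HDA, and the length of treatment is not given in the sources used here. Cultures 1, 3 and 4 each gave 1 vehicle and 1 10HDA library, so there were 6 libraries of total RNA.

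The libraries held 9144736 to 13367194 counts on genes, at which 3 counts equal 0.224 to 0.328 CPM (counts put on one common library size), a floor that covers counting error only. In both libraries of culture 1 a set of Y-linked genes (Uty, Kdm5d, Eif2s3y and Ddx3y) summed to 8.83 and 9.41 CPM, while the other 4 libraries had 90.0 to 131 CPM, although all 6 are labelled SRY+. The medians of the tested genes and of the ATF6 and XBP1 arms, and the paired calls among the tested genes, are therefore also given without culture 1. For calls among other genes only the total over all genes is given without it. Other values of single genes are given with it only. Markers of neurons were abundant, with 12 of 12 tested, and those of microglia were near 0, with Tmem119 at 0 in every library. P-values here measure the spread between 3 cultures within a group. In the fit paired by culture they measure the spread of the treatment difference over the 3 cultures.

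Proteins of the secretory pathway fold in the ER with the help of chaperones, lectins and disulphide isomerases, and those that fail are exported to the cytosol and degraded. When unfolded proteins accumulate, 3 membrane sensors respond. ATF6 is cut by the site-1 and site-2 proteases in the Golgi and its released part induces chaperones, IRE1 (encoded by Ern1) splices the mRNA of Xbp1 and so yields a factor that induces folding, translocation and degradation genes, and PERK (encoded by Eif2ak3) phosphorylates eIF2alpha, which slows translation and favours that of ATF4. Cells with a large secretory and membrane load, neurons among them, express this machinery without an added stress. Xbp1 splicing and ATF6 cleavage are not measured by counts per gene.

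The response elements of these genes can be read in their promoters. Promoter windows from RefSeq (GRCm38.p6), running from 250 bases before the transcription start to 50 bases from it on, were matched for 35 of the 40 genes. Hyou1, Manf, Derl1, Atf6 and Ppp1r15b had no window and were not searched. The ER stress response element (ERSE), the pair CCAAT and CCACG with 9 bases between, was found on either strand in 10 of the 35 genes and in 39 of all 32851 promoters (0.119%). These sites are shown because ERSE is the element through which ATF6 is known to act. Capitals mark the fixed bases, and each site is written 5′ to 3′ on the strand that carries it.
Hspa5, 65 to 47 bases before the start: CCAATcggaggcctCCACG
Hsp90b1, 212 to 194 bases before the start: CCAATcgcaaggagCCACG
Hsp90b1, other strand, 107 to 89 bases before the start: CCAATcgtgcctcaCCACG
Dnajc3, 105 to 87 bases before the start: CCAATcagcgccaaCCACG
Creld2, other strand, 126 to 108 bases before the start: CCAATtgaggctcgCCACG
Calr, other strand, 162 to 144 bases before the start: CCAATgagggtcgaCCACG
Canx, 145 to 127 bases before the start: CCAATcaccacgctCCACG
Pdia6, 98 to 80 bases before the start: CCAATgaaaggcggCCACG
Ero1lb, other strand, 201 to 183 bases before the start: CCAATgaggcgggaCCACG
Syvn1, 44 to 26 bases before the start: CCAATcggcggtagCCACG
Derl3, other strand, 156 to 138 bases before the start: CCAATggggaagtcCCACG

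ERSE-II, which is ATTGG and CCACG with 1 base between, was found in Herpud1 and Dnajb11 and in 0.0365% of all promoters. The ATF4 element TGATGCAA was found in Herpud1 only among these genes, against 0.895% of all promoters. The core TGACGTGG of the XBP1-bound element was in 0 of the 35 genes and in 0.676% of all promoters, and this says only that these letters are not in the window. ERSE and ERSE-II share CCACG, and the other strand of TGACGTGG begins with it, so the searches are not independent. The 250 bases before the starts of Creld2 and Herpud1 are printed as one gene with an ERSE and the one gene with an ERSE-II and an ATF4 element, with the matched letters in capitals. In Creld2 the ERSE lies on the other strand, and in Herpud1 the ATF4 element does.
Creld2, chr15:88819396-88819645, plus strand: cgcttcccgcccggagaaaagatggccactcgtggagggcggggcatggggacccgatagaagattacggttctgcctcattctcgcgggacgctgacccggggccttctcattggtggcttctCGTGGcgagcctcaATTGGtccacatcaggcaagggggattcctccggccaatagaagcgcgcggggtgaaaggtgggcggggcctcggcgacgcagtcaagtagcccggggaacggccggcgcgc
Herpud1, chr8:94386179-94386428, plus strand: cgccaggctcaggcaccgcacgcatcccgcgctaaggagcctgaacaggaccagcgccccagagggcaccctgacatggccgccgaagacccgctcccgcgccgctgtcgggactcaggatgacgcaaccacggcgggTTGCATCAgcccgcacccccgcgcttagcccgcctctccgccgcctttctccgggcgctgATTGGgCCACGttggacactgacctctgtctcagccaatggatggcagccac

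Of the 9 tested genes with an ERSE, 5 had a log2 fold change above 0 and 4 below, with a median of 0.01 and a range from -0.23 (Calr) to 0.32 (Ero1lb). Ero1lb passed the filter on low counts through the 10HDA libraries alone, so its value is a description only, and the next highest was Creld2 with 0.13. None of the 9 was called by edgeR's quasi-likelihood test, with or without culture as a block. Of all genes 8.98% and 0.627% were called in these fits, so 0 of 9 is near the share of all genes. The median over the 23 tested genes whose windows held no ERSE was 0.06. A match is a description of the letters and does not show that a factor binds there.

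**Figure D1:**
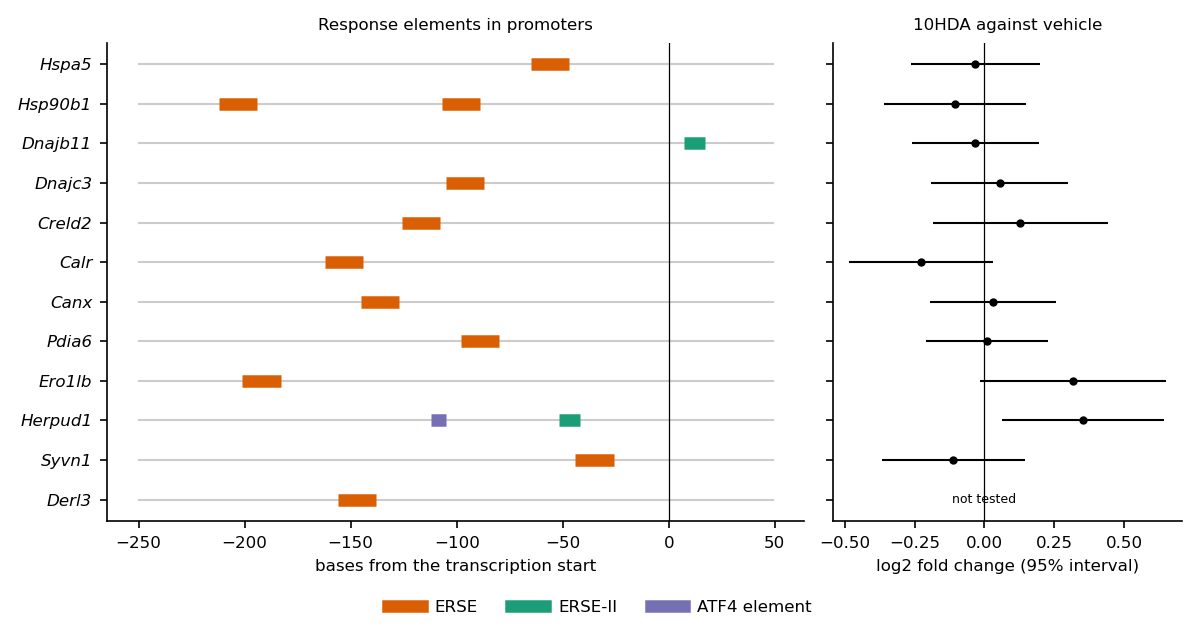
Left, positions of response elements in the RefSeq promoters of 12 genes, in bases from the transcription start, with grey lines for the 300-base window. Right, the log2 fold change of each gene, 10HDA against vehicle, with its 95% interval. The genes with an ERSE ran from -0.23 to 0.32 and none passed the test. The highest, Ero1lb, passed the filter on low counts through the 10HDA libraries alone.

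Across the 37 genes that passed the filter on low counts, the ER chaperones and response genes differed little between 10HDA and vehicle. Their log2 fold changes ran from -0.23 (Pdia3) to 0.40 (Ppp1r15a), which is 0.852-fold to 1.32-fold, with a median of 0.05 against -0.01 over all 10520 genes tested. Without culture 1 the median was 0.08. The values were above 0 for 25 genes and below 0 for 12, beside 5034 above and 5486 below of all 10520. The 25 include Ero1lb, which passed the filter through the 10HDA libraries alone. In 24 of the 37 the difference between the group means was smaller than the SD of the vehicle libraries, whose coefficient of variation ran from 3.07% to 22.5% with a median of 9.15%.

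None of the 37 passed an adjusted p of 0.1 by the quasi-likelihood test of edgeR, adjusted by Benjamini-Hochberg over all genes, where 66 of 10520 genes (0.627%) passed, 0.200% as higher and 0.428% as lower. At an unadjusted p under 0.05 there were 4 higher (Derl1, Ppp1r15a, Herpud1 and Dnajc10) and 0 lower, beside 4.40% and 5.67% of all genes. DESeq2 and limma-voom also called 0 of the 37, beside 170 and 66 of all 10520 genes. The median SE of a log2 fold change was 0.11, and the 95% interval lay within 1.5-fold either way for 31 of the 37 and within a doubling or halving for all 37.

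Each culture had gone to both treatments, so a paired fit, with culture as a block, was also made. It called 3 of the 37 as higher, Herpud1, Derl1 and Ppp1r15a, and 0 as lower. In that fit 945 of all 10520 genes passed (8.98%), 3.91% as higher and 5.08% as lower, so 3 of 37 stood near the share of all genes and nothing particular to this group is read from it. All 10HDA libraries lay above all vehicle libraries for 3 of the tested genes (Edem1, Derl1 and Ppp1r15a) and below them for 1 (Manf), beside 5.96% and 7.44% of all genes. Within cultures, 10 were higher with 10HDA in 3 of 3 cultures and 4 lower (Manf, Calr, Pdia3 and Sel1l), beside 18.6% and 21.0%. The 10 include Ero1lb, with the limit of the filter given above.

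**Figure D2:**
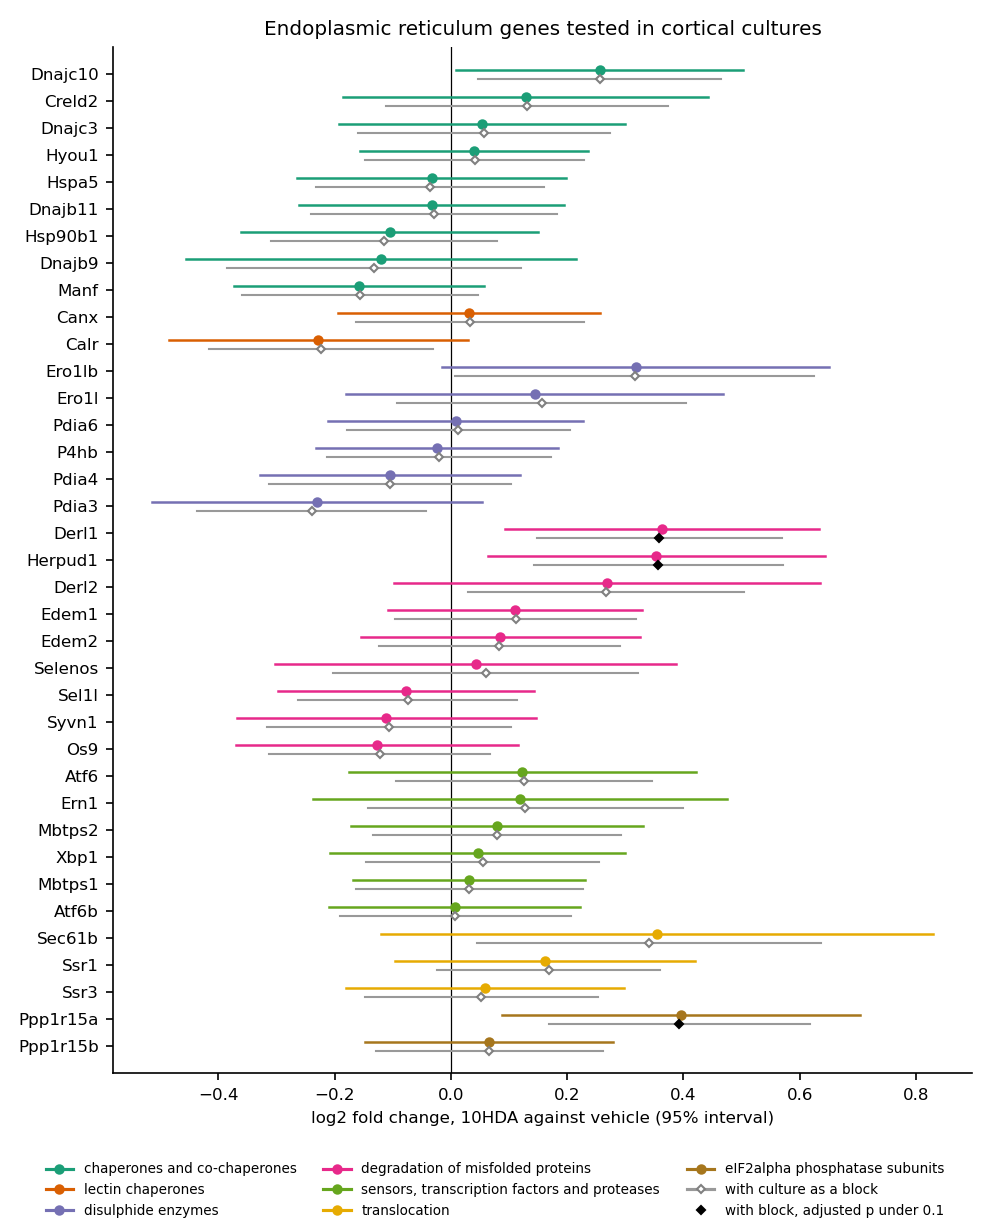
Log2 fold changes, 10HDA against vehicle, of the 37 genes tested, by role. Coloured points and lines are edgeR estimates with 95% intervals, grey diamonds and lines those with culture as a block, and black diamonds the 3 genes past an adjusted p of 0.1 in that fit.

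Levels between genes are compared here per length, as CPM per kilobase of gene length (RPKM), in the vehicle libraries. The lectin Calr was highest at 165 ± 20.6 RPKM (SD, n = 3), followed by the disulphide isomerase Pdia3 at 108 ± 9.61 and the lectin Canx at 99.2 ± 8.27. The last pair differed by less than the SD of Pdia3. Hspa5, the ER Hsp70 chaperone also called BiP, had 68.4 ± 4.70 RPKM, close to Hsp90b1, the ER Hsp90, with 66.2 ± 2.43, and the isomerase P4hb, with 62.0 ± 4.78. The sensors Atf6 and Ern1 stood far lower, at 4.02 ± 0.54 and 2.28 ± 0.49 RPKM, while the related sensor Atf6b had 38.4 ± 2.80 and the transcription factor Xbp1 31.0 ± 4.68. The lowest level was that of Derl3 at 0.33 ± 0.16.

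Of the 9 tested chaperones and co-chaperones, 0 passed either fit, 4 had log2 fold changes above 0 and 5 below, and the median was -0.03. Hspa5 (ENSMUSG00000026864, chromosome 2 of GRCm38 from 34771970 to 34777547) had 310.25, 286 and 271 CPM in the vehicle libraries of cultures 1, 3 and 4. In the 10HDA libraries of the same cultures it had 291, 252 and 305 CPM. The groups overlapped, and the treated library was the lower one in cultures 1 and 3 and the higher one in culture 4. The log2 fold change was -0.03 ± 0.11 (SE), with a 95% interval from -0.27 to 0.20 (edgeR, adjusted p = 0.929).

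The vehicle libraries had 259, 264 and 278 CPM of Hsp90b1 and the 10HDA libraries 226, 226 and 293. Again cultures 1 and 3 were lower with 10HDA and culture 4 higher, and the log2 fold change was -0.11 ± 0.12 (adjusted p = 0.760). Its annotated exons overlap those of 3 other genes, 1 of them on the opposite strand. Hyou1, which exchanges the nucleotide of Hspa5, had a log2 fold change of 0.04.

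Dnajb9, a J-domain co-chaperone of Hspa5 and an established XBP1 target, had 23.2, 23.6 and 25.015 CPM with vehicle and 23.7, 17.4 and 25.3 with 10HDA. Only the culture 3 library with 10HDA stood below the others, and the log2 fold change was -0.12 ± 0.15 (adjusted p = 0.794). Among the other J-domain proteins, Dnajb11 had -0.03, Dnajc3, which also inhibits PERK, 0.05, and the reductase Dnajc10 0.26 (adjusted p = 0.480, and 0.149 with the culture block).

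Manf encodes a secreted ER protein that protects neurons and is induced by ER stress. It had 75.5, 69.9 and 78.8 CPM with vehicle against 66.7, 64.6 and 69.8 with 10HDA, so the groups did not overlap. The means were 74.7 ± 4.49 and 67.0 ± 2.62 CPM (SD, n = 3), and the log2 fold change of -0.16 ± 0.10 did not pass the test (adjusted p = 0.594, and 0.404 with the block). Annotated exons of Manf overlap Dcaf1 by 146 bases and 4930524O07Rik by 166 on the opposite strand, and Rbm15b by 14 on the same strand. Creld2, a secreted protein induced by ATF6, had 24.996, 21.3 and 18.4 CPM with vehicle and 24.6, 24.3 and 21.6 with 10HDA, and its log2 fold change was 0.13 ± 0.14 (adjusted p = 0.761). Its promoter, printed above with its ERSE, belongs to a gene whose groups overlapped.

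Sdf2l1, a component of the Hspa5 chaperone complex, did not pass the filter of 10 CPM in 3 libraries. Its levels were 5.82, 5.90 and 3.66 CPM with vehicle and 4.81, 5.84 and 4.61 with 10HDA, and the groups overlapped. With a filter of 1 CPM its log2 fold change was 0.01 ± 0.23 (adjusted p = 0.991), an estimate less precise than those of the abundant chaperones.

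**Figure D3:**
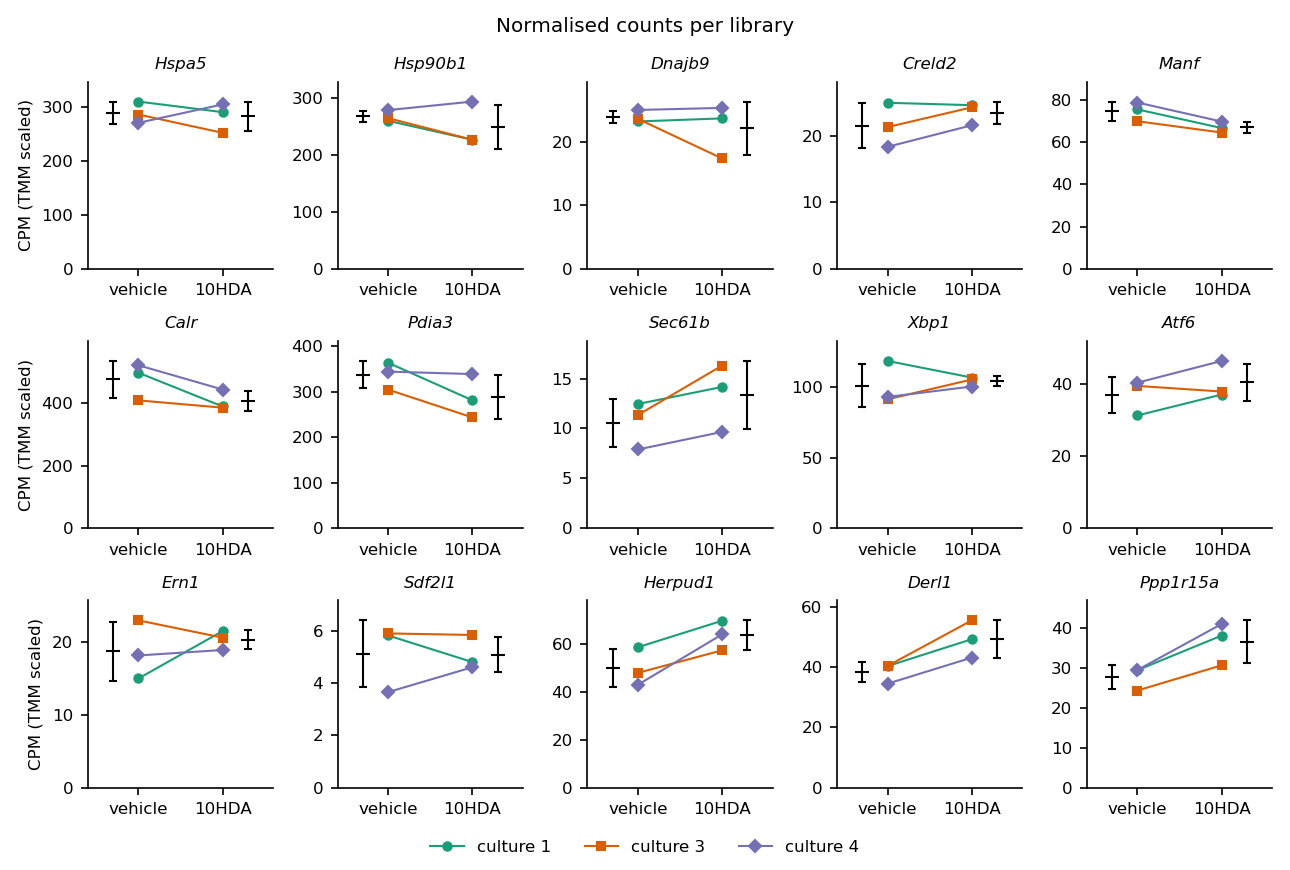
CPM after TMM scaling of 15 genes in the 6 libraries, with a line from the vehicle to the 10HDA library of each culture and the mean ± SD (n = 3) beside each group. Herpud1, Derl1 and Ppp1r15a were higher with 10HDA in all 3 cultures, while Hspa5 and Xbp1 went both ways.

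The lectin chaperones hold glycoproteins while they fold. Calr (calreticulin) had 498, 409 and 522 CPM with vehicle and 389.95, 386 and 444 with 10HDA, lower in 3 of 3 cultures although the groups overlapped. Its log2 fold change was -0.23 ± 0.12 (adjusted p = 0.530, and 0.176 with the block), and reads shared with its pseudogene Calr-ps on chromosome 2 could enter either count. Canx (calnexin), with 0.03, had no such pattern, being higher in cultures 1 and 4 and lower in culture 3.

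Of the 6 disulphide enzymes 3 were above 0 and 3 below, with a median of -0.01 and 0 calls. Pdia3, the isomerase that works with both lectins, had 364, 305 and 345 CPM with vehicle and 282, 244 and 339 with 10HDA. It was lower in 3 of 3 cultures, with the smallest step in culture 4, and its log2 fold change of -0.23 ± 0.13 did not pass (adjusted p = 0.556, and 0.152 with the block). Pdia4, Pdia6 and P4hb, further isomerases, had -0.11, 0.01 and -0.02. The oxidases that recharge the isomerases, Ero1l and Ero1lb, had 0.14 and 0.32 (adjusted p = 0.743 and 0.510). Ero1lb was higher with 10HDA in 3 of 3 cultures at a low level, 9.06 ± 0.96 CPM (SD, n = 3) in the vehicle group against 11.3 ± 1.18 in the treated group. It passed the filter, which was set on CPM before TMM scaling, through the 10HDA libraries alone. Its direction is therefore not independent of the filter and is given as a description.

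Genes for the degradation of misfolded proteins held 2 of the 3 calls of the paired fit. Herpud1 (ENSMUSG00000031770, chromosome 8 from 94386438 to 94395377), an ER membrane protein that organizes the degradation complex and a known target of both ATF6 and ATF4, had 58.5, 47.8 and 42.9 CPM with vehicle. With 10HDA it had 69.5, 57.2 and 63.8 CPM, higher in 3 of 3 cultures, most in culture 4, while the treated library of culture 3 lay below the vehicle library of culture 1. The change was 1.28-fold (95% interval 1.05 to 1.56), or 0.35 ± 0.13 on the log2 scale (adjusted p = 0.413). With culture as a block it was 0.36 ± 0.10 and passed (adjusted p = 0.0409).

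Derl1 (ENSMUSG00000022365, chromosome 15 from 57869502 to 57892448), a derlin of the channel through which misfolded proteins leave the ER, had 40.4, 40.5 and 34.6 CPM with vehicle and 49.4, 55.6 and 43.2 with 10HDA. The groups did not overlap. Its log2 fold change was 0.36 ± 0.12 (adjusted p = 0.359), and 0.36 ± 0.10 with the block (adjusted p = 0.0371). The paralog Derl2 had 0.27, higher in 3 of 3 cultures but by 0.62 in culture 1 and 0.02 in culture 3 (adjusted p = 0.596, and 0.187 with the block), and 231 of its exonic bases overlap Mis12 on the opposite strand.

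Derl3, the third derlin, was counted at 0.23 to 0.66 CPM, near the floor of 3 counts, and no change could be measured at this depth. Of the ubiquitin ligase complex, the ligase Syvn1 had -0.11 and its partner Sel1l -0.08. The mannose-trimming Edem1 and Edem2 had 0.11 and 0.09, the lectin Os9 -0.13, and Selenos, which ties derlins to the extracting ATPase, 0.04. Edem1 was above all vehicle libraries in every 10HDA library, at 50.3 ± 0.33 against 46.5 ± 2.85 CPM (SD, n = 3), a small difference that did not pass (adjusted p = 0.705).

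The 6 tested sensors, factors and proteases all had log2 fold changes above 0, from 0.01 (Atf6b) to 0.12 (Atf6), with 0 calls in either fit. Of all 10520 genes 5034 were above 0. Xbp1 had 118, 91.3 and 92.9 CPM with vehicle and 107, 105 and 100.27 with 10HDA. The treated values lay between the vehicle values, and the log2 fold change was 0.05 ± 0.12 (adjusted p = 0.905). These counts hold the spliced and the unspliced mRNA together.

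Atf6 had 31.4, 39.6 and 40.5 CPM with vehicle and 37.2, 38.0 and 46.5 with 10HDA, and its log2 fold change was 0.12 ± 0.14 (adjusted p = 0.760). Ern1 had 14.96, 22.9 and 18.1 CPM with vehicle and 21.5, 20.6 and 18.9 with 10HDA, 0.12 ± 0.16 (adjusted p = 0.804). In both genes the groups overlapped and culture 3 went against the others. The proteases that cut ATF6, encoded by Mbtps1 and Mbtps2, had 0.03 and 0.08, and Mbtps2 shares 2867 exonic bases with Yy2 on the same strand, so its reads may be split. Creb3l2, a membrane-bound factor related to ATF6, had 4.93 to 6.40 CPM with vehicle and 6.997 to 7.90 with 10HDA and was under the filter. At 1 CPM its log2 fold change was 0.33 ± 0.18 (adjusted p = 0.536).

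In translocation, Sec61b, the beta subunit of the channel, had 12.5, 11.4 and 7.90 CPM with vehicle and 14.2, 16.3 and 9.65 with 10HDA. It was higher in 3 of 3 cultures, yet its range over cultures was wider than the difference between the group means, and the log2 fold change of 0.35 ± 0.22 was the least precise of the 37 (adjusted p = 0.587, and 0.178 with the block). The translocon-associated Ssr1 and Ssr3 had 0.16 and 0.06.

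The eIF2alpha phosphatase reverses the phosphorylation that PERK and related kinases make. Its stress-inducible subunit Ppp1r15a (GADD34, ENSMUSG00000040435, chromosome 7 from 45522916 to 45526268) had 29.4, 24.3 and 29.4 CPM with vehicle and 38.0, 30.6 and 40.9 with 10HDA. All 3 treated libraries lay above all vehicle libraries, a 1.32-fold difference (95% interval 1.06 to 1.63). The log2 fold change was 0.40 ± 0.14 (adjusted p = 0.385), and 0.39 ± 0.11 with the block (adjusted p = 0.0311). Its constitutive counterpart Ppp1r15b had 0.07 (adjusted p = 0.826), and 640 of its exonic bases overlap another gene on the opposite strand.

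The 3 paired calls were not made by every tool, nor without culture 4, in settings that called fewer of all genes, 389 with the block in DESeq2 and 373 without culture 4, against 945. With the block in DESeq2 the adjusted p was 0.119 for Herpud1, 0.140 for Derl1 and 0.141 for Ppp1r15a, so 0 passed, at log2 fold changes of 0.37, 0.37 and 0.41. Without culture 4 the paired edgeR fit gave adjusted p-values of 0.548, 0.221 and 0.310 at log2 fold changes of 0.25, 0.37 and 0.35, and without culture 1 it gave 0.0463, 0.0569 and 0.0745, so all 3 passed. With limma-voom and the block they also passed.

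Sorted by arm, the genes were described by their medians, since the lists were written with earlier results of these data known and the difference between arms was not tested. Of the 11 tested genes of the ATF6 arm, 4 were above 0 and 7 below, with a median of -0.03, and by culture it was -0.12, -0.08 and 0.07 in cultures 1, 3 and 4. Herpud1 alone of them passed the paired fit. The 10 genes of the XBP1 arm had a median of 0.08, with 8 above 0 and 2 below, and 0.19, 0.03 and 0.14 by culture. Derl1 was its 1 paired call. Of all 10520 genes 5034 were above 0 and 5486 below. Of the ATF6 arm 1 gene was higher in 3 of 3 cultures and 3 were lower, and of the XBP1 arm 5 were higher and 0 lower, where all genes gave 18.6% higher and 21.0% lower. Without culture 1 the medians were 0.02 for the ATF6 arm and 0.10 for the XBP1 arm, and with library size alone as scaling, which moves the median of all genes from -0.01 to 0.06, they were 0.04 and 0.16.

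Of the 12 listed genes of the PERK and ATF4 branch 9 were tested. Trib3 passed the filter through the treated libraries alone, so it is left out of the counts here and given as a description. Of the other 8, 7 were above 0, with a median of 0.45, and 4 rose by edgeR's test, Ddit3, Chac1, Sesn2 and Eif4ebp1, where 0.200% of all genes were called higher. Without culture 1 that fit called 1 of all 10520 genes higher, so these 4 calls did not all hold. With the block 4 rose, where 3.91% of all genes were called higher. The list was written with earlier results of these data known, so its direction is not independent evidence. Ddit3, the transcription factor CHOP, had 20.2, 20.1 and 20.3 CPM with vehicle and 35.1, 29.0 and 32.8 with 10HDA, and its log2 fold change was 0.67 ± 0.12 (adjusted p = 0.0497).

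Chac1, a glutathione-degrading enzyme induced by ATF4, rose from 26.2 ± 2.72 to 48.8 ± 5.51 CPM (SD, n = 3; log2 fold change 0.90 ± 0.13, adjusted p = 0.0272). The pseudokinase Trib3 had 3.24 to 4.66 CPM with vehicle and 10.1 to 12.4 with 10HDA, a log2 difference of 1.502 ± 0.18. The stress-response gene Sesn2 rose by 0.80 ± 0.13 and the translation repressor Eif4ebp1 by 0.72 ± 0.14 (adjusted p = 0.0428 and 0.0789). The sensor gene Eif2ak3 had -0.03 and Atf4 itself 0.13 (adjusted p = 0.951 and 0.711), while Asns and Cebpg had 0.23 each without passing. Atf3, Nupr1 and Cebpb were under the filter. Ppp1r15a and Herpud1, which ATF4 is known to induce, had 0.40 and 0.35. These log2 fold changes were smaller than those of the 4 genes that rose and larger than those of Asns, Cebpg, Atf4 and Eif2ak3. The 4 were picked by the same test on the same data, so this order is a description only.

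**Figure D4:**
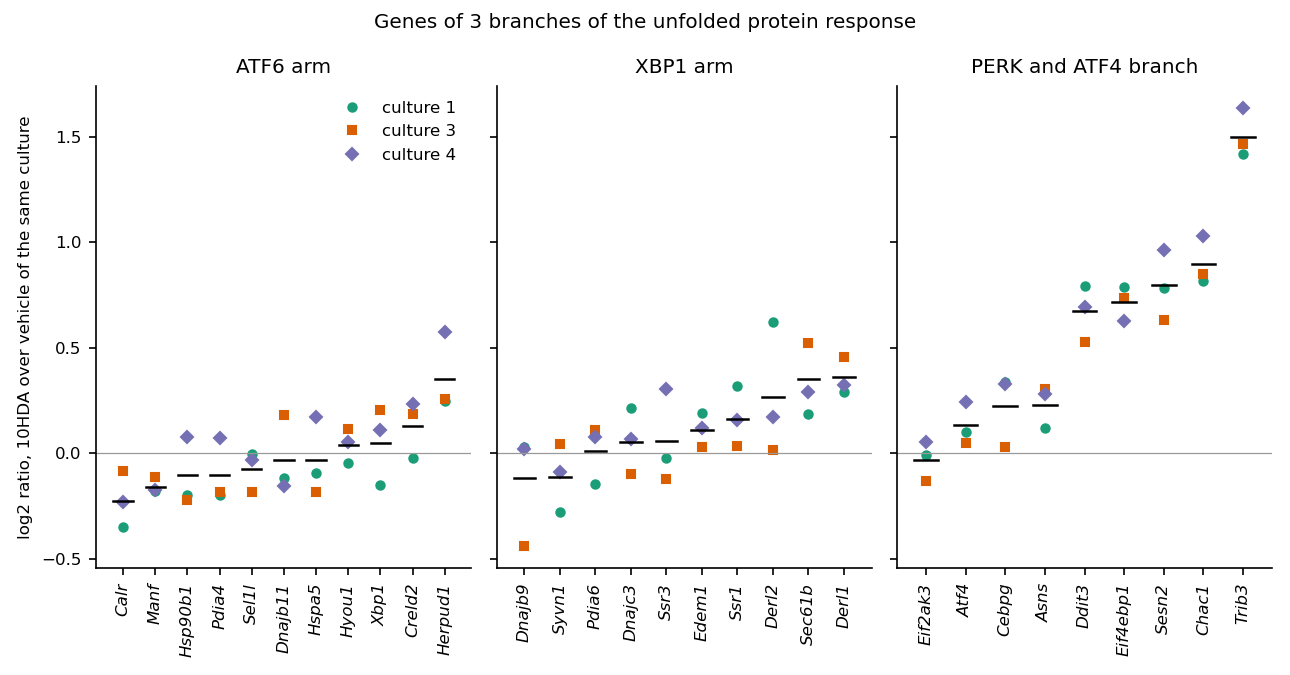
Log2 ratio of the 10HDA over the vehicle library of each culture for the tested genes of the ATF6 arm, the XBP1 arm and the PERK and ATF4 branch, with black bars for the edgeR estimate. Estimates of the ATF6 arm lie on both sides of 0 and those of the XBP1 arm above 0 for 8 of 10 genes, and Ddit3, Eif4ebp1, Sesn2, Chac1 and Trib3 lie above 0.5 in all 3 cultures.

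In the wider ER machinery, of 82 tested genes in 5 further lists, 0 passed without the block, where 0.627% of all genes did, and 4 with it, where 8.98% did, 3.91% as higher. The counts were thus near or under the share of all genes, and the median was 0.04. Those 4 were the folding enzymes Tmx3 (log2 fold change 0.46, adjusted p = 0.0158 with the block) and Ganab (0.27, 0.0859), and the ER to Golgi transport genes Sar1b (0.48, 0.00500) and Kdelr2 (0.35, 0.0414), all higher. Of 22 other translocon and oligosaccharyltransferase genes 0 passed, and the smallest p belonged to Spcs1 (0.30) and Tram1 (0.26). Of 22 other degradation genes 0 passed, led by Erlec1 (-0.29) and Rnf5 (-0.25), and 0 of the 2 tested CREB3 family genes, Creb3 (0.06) and Creb3l1 (0.02).

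Markers of other cell types moved with the treatment, and their part in these values was not tested. Of 12 tested astrocyte markers 5 fell without the block, Gfap, Aldh1l1, Aldoc, Slco1c1 and Clu, where 0.428% of all genes were called lower. Without culture 1 that fit called 2 of all 10520 genes lower, so these 5 calls did not all hold. With the block 7 fell, where 5.08% of all genes were called lower and 3.91% higher. The astrocyte list summed to 1625 to 1908 CPM with vehicle and 1251 to 1495 with 10HDA. Neuronal markers summed to 9292 to 9819 and 7761 to 8756 CPM, with 0 of 12 called without the block and 5 lower with it. Of 10 interneuron markers 5 were called lower and of 3 intermediate progenitor markers 3 higher, with the block only. In the oligodendrocyte lineage, which summed to 329 to 409 CPM with vehicle and 248 to 354 with 10HDA, Cspg4 fell, and with the block 3 of 6 fell, Pdgfra, Cspg4 and Sox10. In endothelial cells and pericytes, with 17.5 to 18.9 against 8.07 to 11.1 CPM, Pdgfrb fell, having passed the filter through the vehicle libraries alone, as Sox10 did. With the block, 1 of 10 markers of excitatory neurons was lower, 1 of 7 of radial glia was higher and 2 were lower, and 0 of 5 of dividing cells passed. Meningeal fibroblasts had no marker tested and Slc6a13 at 0, and their list summed to 9.89 to 12.2 CPM with vehicle and 6.35 to 6.69 with 10HDA, which do not overlap. Summed over all 40 genes, the ER chaperones and response genes took 4325 to 4471 CPM with vehicle and 4173 to 4567 with 10HDA, which overlap. In bulk cultures, fewer cells of a type and less RNA per cell cannot be told apart.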

How the data were processed

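RNA of 3 vehicle and 3 10HDA primary cortical cultures was sequenced. Per the methods and the submitters' processing notes, the authors checked reads with FastQC, aligned them untrimmed to mm10 with Subjunc (Subread 1.4.4) and summarized them on Gencode genes with featureCounts, and they used edgeR 3.4.2 in R 3.0.2. The deposited values used here are the raw counts per gene, unfiltered, with a gene length. The library kit keeps strand, but the strand setting of the counting is not given in the sources used here. Identifiers were matched to GENCODE release M21 (98.0%), and coordinates are from it (GRCm38).

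The 40 genes and all lists were chosen with earlier results of these data known. The 10520 genes that reached 10 CPM in 3 or more libraries were tested after TMM scaling at a Benjamini-Hochberg adjusted p of 0.1 over all genes. That filter, scaling and threshold are those of the methods. The quasi-likelihood test (glmQLFit and glmQLFTest in edgeR 4.0.16, R 4.3.3) and the absence of a culture term were chosen here. The SE was taken as the log2 fold change over the root of F. RPKM is the TMM-scaled CPM per kilobase of the deposited gene length. The labels place 1 library of each treatment in each culture, so culture numbers pair the libraries. Deviations from the group means correlated across genes at 0.37, 0.24 and 0.62 within cultures 1, 3 and 4 and at -0.45 to 0.18 between them, genes not being independent replicates. The deviations of a gene cancel out within a group, so the contrast of values within and between cultures is partly built in. The block lowered the common biological coefficient of variation from 0.116 to 0.0849. With 3 against 3 an exact permutation test cannot go below p = 0.1, so none was run.

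Values were given in every library for a set of 11 genes, those past 0.1 in either fit and the 3 highest and 3 lowest fold changes. Alternatives were other scalings, DESeq2 1.42.0, limma-voom (limma 3.58.1), other filters and each library or culture left out. Promoters came from a RefSeq table, and the first 30 bases after the start were found in a GENCODE transcript of the gene for 25 of 35.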

Additional observations from a re-analysis of the deposited data

How the results depend on the processing

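Without the block, 0 of the tested genes passed in any of 16 alternatives. Of all 10520 genes, 0 passed without the 10HDA library of culture 1 or without culture 3, and 3 without culture 1. In such settings almost no gene could pass, so nothing particular to this group is read from the 0. The median log2 fold change of the 37, 0.05, was 0.12 with library size alone. It lay between 0.016 (without the 10HDA library of culture 4) and 0.08 (without culture 1) when libraries were left out. With culture as replicate block, 3 genes passed, all higher, also at 0.05, with limma-voom or with a filter of 1 CPM (39 tested). With library size alone and the block 6 passed, all higher (median 0.13), adding Dnajc10, Derl2 and Sec61b. That fit called 918 of all 10520 genes higher and 318 lower, so the added calls are not read as particular to this group. Leaving out a culture in the paired fit gave 0 to 6 calls, 0 to 5 higher and 0 to 1 lower. Without culture 1, 3 passed (median 0.080), without culture 3, 6 passed, with Calr as the 1 lower, and without culture 4, 0. Of all 10520 genes these paired fits called 711, 1150 and 373. With DESeq2 and the block, 0 passed. The block combined with another choice was added after the data were seen. The cause of these differences was not tested. The block changed no other call among the 37. Over all genes, calls went from 66 to 945 with the block and 389 with it in DESeq2. Of the 37, 22 kept their sign in every setting and 15 did not, Hspa5, Dnajb9 and Xbp1 among these. The ATF6 arm's median ran from -0.10 to 0.04. Depth limits the genes under 10 CPM, and the number of cultures limits the others.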
